A study of Mus musculus with 12 samples.

Results

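Collagens are the family described here: 42 of the 23136 named loci in the deposited tables carry a symbol built as Col, a number, the letter a and a number. By textbook class, 11 of the 42 encode fibrillar chains, 8 encode basement membrane chains and 23 encode chains of other types. A locus was counted as expressed where at least 1 library reached 1 FPKM, the authors' value of fragments scaled to transcript length and to the number of mapped fragments. On that rule 20 collagens were expressed and 22 were not.

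Polyadenylated RNA was sequenced in 12 libraries, 3 for each of 4 groups, and the mouse pluripotent cells were of the C57 Bl/6J strain. The stated purpose of the study was to set the naive to primed transition beside the changes after loss of Sirt1 and after knockdown of Otx2. EpiLC, epiblast-like cells that model the epiblast after implantation, were wild-type cells moved from the stem cell medium to fibronectin. They received 12 ng/ml Fgf2, 20 ng/ml Activin A and 1% KOSR, a serum replacement, for 48 h. The group called Sirt1KO Otx2KD here consisted of embryonic stem cells (ESC) with Sirt1 knocked out and Otx2 knocked down, and the Sirt1KO group of ESC with Sirt1 knocked out alone. Wild-type ESC were the common comparison. All 3 ESC groups grew on 0.1% gelatin in serum-free N2B27 medium with LIF, 1 uM of the MEK inhibitor PD0325901 and 3 uM of the GSK3 inhibitor CHIR99021, which together hold the naive state. EpiLC and ESC therefore differ in state, medium and coating at once, and these cannot be told apart. Every comparison with wild-type ESC also carries shifts of whole chromosomes, given below, which cannot be told apart from the named differences. The labels do not give the part of Sirt1 that was removed, how Otx2 was knocked down, or whether a group is 1 clone.

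Collagens are secreted proteins whose chains wind around each other into helical trimers. Fibrillar types build the cables of connective tissue, type IV forms the sheet-like network of basement membranes, on one of which the epiblast rests after implantation, and types such as VI and IX bind to or link these structures. Inside the cell the chains are hydroxylated, glycosylated and folded, and outside it most fibrillar chains are trimmed and crosslinked.

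The libraries were of similar depth. Low FPKM values move in steps, and depth estimated from these ran from 0.767 to 1.33 of that of wild-type ESC replicate 1, and 15775 to 16408 named loci per library had a value above 0. Otx2, a homeobox factor of the primed epiblast, averaged 100.2 ± 3.45 FPKM in EpiLC, 6.07 ± 0.401 FPKM in Sirt1KO Otx2KD, 27.0 ± 6.36 FPKM in Sirt1KO and 7.38 ± 0.458 FPKM in wild-type ESC (mean ± SD, n = 3 libraries, as for all group means below). It was lower in Sirt1KO Otx2KD than in Sirt1KO (log2 fold change -1.96 ± 0.12, adjusted p = 4.13e-08 by limma). Sirt1 averaged 33.2 ± 1.24 FPKM in EpiLC, 15.6 ± 0.492 FPKM in Sirt1KO Otx2KD, 15.5 ± 0.196 FPKM in Sirt1KO and 25.8 ± 0.412 FPKM in wild-type ESC, and was lower in Sirt1KO than in wild-type ESC (-0.70 ± 0.04, adjusted p = 5.76e-09). That value covers the whole locus and not the deleted part alone, so it checks the label only in part. Of the primed markers, 5 of 5 tested rose in EpiLC over wild-type ESC, where 35.8% of all tested loci rose. Of the naive markers 6 of 6 tested fell, where 38.8% of all tested loci fell. Nanog, also on the naive list, was not found as a locus of that name and has no value here. The labels do not state that replicates were grown separately, so the tests below weigh differences only against the spread between these libraries, part of which may be technical. In bulk RNA, fewer cells of a type and less RNA per cell cannot be told apart.

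Of the 20 expressed collagens, 5 had their highest group mean in EpiLC, 12 in Sirt1KO Otx2KD, 0 in Sirt1KO and 3 in wild-type ESC. The lowest group mean was that of Sirt1KO for 16 of them. A group mean of at least 1 FPKM was reached by 14 collagens in EpiLC, 18 in Sirt1KO Otx2KD, 7 in Sirt1KO and 17 in wild-type ESC. The expressed collagens were 8 of the 11 fibrillar genes, 4 of the 8 basement membrane genes and 8 of the 23 others. Each of the 20 also reached 1 FPKM in at least 3 libraries and so entered the tests. Col4a5 and Col14a1 did so only through Sirt1KO Otx2KD libraries, Col11a1 and Col12a1 only through Sirt1KO Otx2KD and wild-type ESC, and Col9a3 only through EpiLC and Sirt1KO, so these 5 had to be higher there to be tested. Counts without them are given beside those over all 20. Of the genes left, Col5a2, Col5a3, Col6a1, Col6a2, Col6a3, Col8a1 and Col9a2 reached 1 FPKM in no Sirt1KO library. They entered through the other groups alone, so counts against Sirt1KO without the 5 still depend on the filter.

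**Figure D1:**
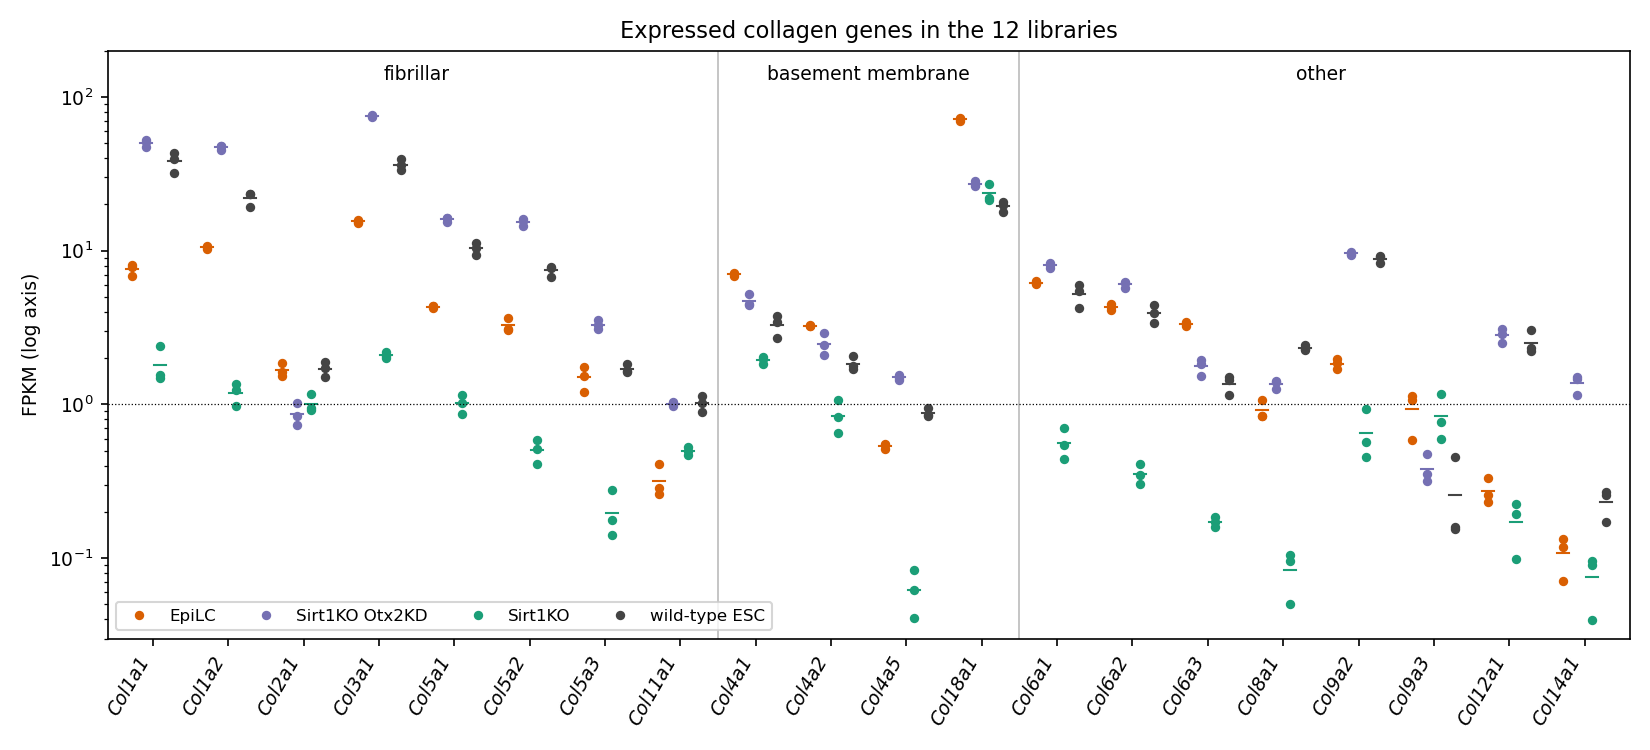
FPKM of each expressed collagen on a log axis, with 1 point per library and a bar at the group mean, for EpiLC, Sirt1KO Otx2KD, Sirt1KO and wild-type ESC. The dotted line marks 1 FPKM. Sirt1KO points lie lowest for most genes, while Col18a1 is above 15 FPKM in all 12 libraries and highest in EpiLC.

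Among fibrillar genes, Col3a1 (XLOC_000101, mm9 chromosome 1, 45368382 to 45406551) had the highest value of any collagen. It encodes the chain of type III collagen, a homotrimer found with type I in soft tissues. Col3a1 stood at 15.4, 15.2 and 15.9 FPKM in EpiLC, 74.4, 75.4 and 75.9 FPKM in Sirt1KO Otx2KD, 2.08, 2.02 and 2.20 FPKM in Sirt1KO, and 33.6, 36.2 and 39.3 FPKM in wild-type ESC. The 4 groups did not overlap, and their order was Sirt1KO Otx2KD, wild-type ESC, EpiLC, Sirt1KO. The spread within a group was small beside the distances between groups, with means of 15.5 ± 0.387 FPKM in EpiLC, 75.2 ± 0.761 FPKM in Sirt1KO Otx2KD, 2.10 ± 0.0896 FPKM in Sirt1KO and 36.3 ± 2.88 FPKM in wild-type ESC.

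Type I collagen, the main fibrillar type of bone, skin and tendon, is a trimer of chains from Col1a1 and Col1a2. Col1a2 (XLOC_019704, mm9 chromosome 6, 4455696 to 4491543) had 10.6, 10.7 and 10.3 FPKM in EpiLC, 48.0, 45.6 and 48.0 FPKM in Sirt1KO Otx2KD, 1.36, 0.971 and 1.24 FPKM in Sirt1KO, and 19.4, 23.5 and 23.4 FPKM in wild-type ESC. Col1a1 (XLOC_003418, mm9 chromosome 11, 94797573 to 94814353) had 7.84, 8.09 and 6.88 FPKM in EpiLC, 52.7, 51.2 and 47.6 FPKM in Sirt1KO Otx2KD, 2.39, 1.56 and 1.48 FPKM in Sirt1KO, and 31.9, 43.4 and 39.3 FPKM in wild-type ESC. Neither gene overlapped between groups, and both followed the order of Col3a1. Sirt1KO Otx2KD and wild-type ESC lay closer together for Col1a1 than for Col1a2. Between these groups the median log2 fold change was -0.39 for chromosome 11, which holds Col1a1, and 0.19 for chromosome 6, which holds Col1a2. The part of these shifts in that contrast was not tested.

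Promoter sequence is shown for Col3a1 and Col1a2, whose levels kept nearly the same proportion in all groups, and for Col18a1, which did not follow them. Each is the 250 bases before the RefSeq transcription start in GRCm38.p6, written along the strand of the gene. The windows are chr1:45311288-45311537 (plus strand) for Col3a1, chr6:4505368-4505617 (plus strand) for Col1a2, and chr10:77166531-77166780 and chr10:77113706-77113955 (both minus strand) for the 2 RefSeq starts of Col18a1. Capitals mark the motifs searched on both strands, which were the TATA box, spelled TATAAA here, the CCAAT box, spelled CCAAT and read as ATTGG from the other strand, and the GC box, spelled GGGCGG and read as CCGCCC from the other strand. No letters are shared between matches of different motifs in these windows.
Col3a1: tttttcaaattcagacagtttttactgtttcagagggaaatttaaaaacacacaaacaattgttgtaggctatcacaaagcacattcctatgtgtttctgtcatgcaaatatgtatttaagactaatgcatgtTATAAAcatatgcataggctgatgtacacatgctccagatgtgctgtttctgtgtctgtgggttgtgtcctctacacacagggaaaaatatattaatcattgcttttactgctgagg
Col1a2: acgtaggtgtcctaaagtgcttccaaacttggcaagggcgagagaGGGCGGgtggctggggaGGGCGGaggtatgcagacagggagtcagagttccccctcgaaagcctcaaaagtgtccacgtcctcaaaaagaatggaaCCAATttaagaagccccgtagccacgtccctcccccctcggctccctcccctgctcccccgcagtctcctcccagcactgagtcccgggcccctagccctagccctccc
Col18a1, first start: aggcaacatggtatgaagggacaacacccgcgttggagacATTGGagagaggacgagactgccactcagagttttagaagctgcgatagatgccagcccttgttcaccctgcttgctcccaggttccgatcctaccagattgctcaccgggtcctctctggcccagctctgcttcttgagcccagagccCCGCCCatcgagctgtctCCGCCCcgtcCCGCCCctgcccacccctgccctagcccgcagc
Col18a1, second start: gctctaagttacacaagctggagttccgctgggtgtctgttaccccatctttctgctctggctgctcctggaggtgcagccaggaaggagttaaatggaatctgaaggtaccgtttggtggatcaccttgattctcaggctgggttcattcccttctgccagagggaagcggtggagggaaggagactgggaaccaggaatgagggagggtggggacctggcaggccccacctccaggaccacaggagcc
In the Col3a1 window TATAAA ended at position -112, counted from -1 at the base before the start, and neither of the other motifs was present. The Col1a2 window held CCAAT ending at -105 and 2 copies of GGGCGG, the nearer ending at -183. The first window of Col18a1 held 3 copies of the GC box, the nearest ending at -28, and 1 ATTGG ending at -206, while its second window held none of these letters. The deposited value of Col18a1 is 1 value for the locus and does not separate the starts. RefSeq promoters were found for 14 of the 20 expressed collagens, 2 of them with 2 starts. TATAAA occurred in 1 of the 14 genes, against 12.4% of 32851 mouse promoter windows of this length, CCAAT in 7, against 33.8%, and GGGCGG in 10, against 32.7%. These are letter matches in a fixed window and describe no binding.

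Type V collagen copolymerises with type I and sets the width of its fibrils. Col5a1 (XLOC_012928, mm9 chromosome 2, 27741944 to 27895030) had 4.36, 4.40 and 4.22 FPKM in EpiLC, 16.3, 16.4 and 15.5 FPKM in Sirt1KO Otx2KD, 1.02, 0.867 and 1.16 FPKM in Sirt1KO, and 9.44, 10.5 and 11.3 FPKM in wild-type ESC. Col5a2 (XLOC_000740, mm9 chromosome 1, 45431175 to 45560127) is separated from the Col3a1 locus by 24.6 kb with no other named locus between them. It had 3.05, 3.11 and 3.63 FPKM in EpiLC, 14.6, 16.2 and 15.7 FPKM in Sirt1KO Otx2KD, 0.515, 0.413 and 0.585 FPKM in Sirt1KO, and 7.88, 6.78 and 7.76 FPKM in wild-type ESC. Both type V chains again ran in the order Sirt1KO Otx2KD, wild-type ESC, EpiLC, Sirt1KO without overlap.

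The remaining expressed fibrillar genes were at or below 4 FPKM. Col5a3, a further type V chain, averaged 1.50 ± 0.271 FPKM in EpiLC, 3.31 ± 0.231 FPKM in Sirt1KO Otx2KD, 0.198 ± 0.0699 FPKM in Sirt1KO and 1.71 ± 0.108 FPKM in wild-type ESC. EpiLC and wild-type ESC overlapped for this gene. Col2a1, the main collagen of cartilage, averaged 1.67 ± 0.162 FPKM in EpiLC, 0.864 ± 0.143 FPKM in Sirt1KO Otx2KD, 1.01 ± 0.140 FPKM in Sirt1KO and 1.71 ± 0.190 FPKM in wild-type ESC. It was the 1 expressed collagen with its lowest group mean in Sirt1KO Otx2KD. Col11a1, which forms fibrils with type II collagen in cartilage, averaged 0.319 ± 0.0791 FPKM in EpiLC, 1.01 ± 0.0315 FPKM in Sirt1KO Otx2KD, 0.496 ± 0.0296 FPKM in Sirt1KO and 1.02 ± 0.119 FPKM in wild-type ESC. It was the 1 expressed collagen with its lowest group mean in EpiLC.

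The 4 expressed basement membrane collagens did not share 1 order of groups. Col18a1 (XLOC_002315, mm9 chromosome 10, 76514923 to 76629275) encodes type XVIII collagen, a heparan sulphate proteoglycan of basement membranes whose C-terminal fragment is endostatin. Col18a1 had 72.6, 72.4 and 70.1 FPKM in EpiLC, 26.3, 28.5 and 27.2 FPKM in Sirt1KO Otx2KD, 27.3, 22.1 and 21.5 FPKM in Sirt1KO, and 17.9, 19.9 and 20.7 FPKM in wild-type ESC. The EpiLC libraries were far above all others. Sirt1KO Otx2KD and Sirt1KO overlapped, through Sirt1KO replicate 1, and both lay above wild-type ESC. Col18a1 was the highest collagen in EpiLC and in Sirt1KO, where the fibrillar genes were low.

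Type IV collagen is made in most basement membranes from chains of Col4a1 and Col4a2. Col4a1 (XLOC_024246, mm9 chromosome 8, 11198422 to 11312826) had 7.09, 7.20 and 6.89 FPKM in EpiLC, 4.49, 5.27 and 4.46 FPKM in Sirt1KO Otx2KD, 2.03, 1.99 and 1.82 FPKM in Sirt1KO, and 2.71, 3.42 and 3.75 FPKM in wild-type ESC. The 4 groups did not overlap, in the order EpiLC, Sirt1KO Otx2KD, wild-type ESC, Sirt1KO. Col4a2 (XLOC_023657, mm9 chromosome 8, 11312828 to 11449287) followed the same order without overlap, with means of 3.26 ± 0.0370 FPKM in EpiLC, 2.48 ± 0.402 FPKM in Sirt1KO Otx2KD, 0.845 ± 0.206 FPKM in Sirt1KO and 1.85 ± 0.194 FPKM in wild-type ESC. The deposited loci of the 2 genes end and begin 2 bases apart, on opposite strands in RefSeq. The stretch that holds both RefSeq starts is shown because these chains share it, as chr8:11312801-11312830 on the plus strand of GRCm38.p6, with the 22 bases in which the annotated first exons overlap in capitals.
Col4a1 and Col4a2: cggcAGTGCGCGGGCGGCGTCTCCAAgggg
The first base of Col4a2 is 11312805 on the plus strand and that of Col4a1 is 11312826 on the minus strand, so each gene reads through the start of the other within this stretch. Overlapping ends can share reads where counting does not use strand, which is not given in the sources used here.

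Col4a5, a type IV chain mutated in Alport syndrome, was the third type IV gene expressed. It averaged 0.538 ± 0.0218 FPKM in EpiLC, 1.50 ± 0.0547 FPKM in Sirt1KO Otx2KD, 0.0620 ± 0.0216 FPKM in Sirt1KO and 0.882 ± 0.0593 FPKM in wild-type ESC. Its order was that of Col3a1 and not that of Col4a1. Its head-to-head neighbour Col4a6, 1342 bases away, did not pass 0.0600 FPKM in any library.

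Of the other types, the type VI chains form beaded filaments around cells. Col6a1 (XLOC_002313, mm9 chromosome 10, 76171536 to 76188789) had 6.11, 6.32 and 6.20 FPKM in EpiLC, 7.73, 8.13 and 8.26 FPKM in Sirt1KO Otx2KD, 0.700, 0.438 and 0.543 FPKM in Sirt1KO, and 4.27, 6.03 and 5.45 FPKM in wild-type ESC. Col6a2 (XLOC_002312, mm9 chromosome 10, 76058500 to 76086149), 85.4 kb away, had 4.14, 4.33 and 4.48 FPKM in EpiLC, 6.12, 6.25 and 5.72 FPKM in Sirt1KO Otx2KD, 0.348, 0.305 and 0.411 FPKM in Sirt1KO, and 3.36, 3.95 and 4.45 FPKM in wild-type ESC. For both chains Sirt1KO was lowest and Sirt1KO Otx2KD highest, and EpiLC and wild-type ESC were close, with overlap for Col6a2. Col6a3, the third chain of the type VI trimer, averaged 3.36 ± 0.0931 FPKM in EpiLC, 1.77 ± 0.220 FPKM in Sirt1KO Otx2KD, 0.172 ± 0.0124 FPKM in Sirt1KO and 1.36 ± 0.188 FPKM in wild-type ESC. Its highest group was EpiLC, while that of Col6a1 and Col6a2 was Sirt1KO Otx2KD.

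Col9a2 (XLOC_016841, mm9 chromosome 4, 120712170 to 120727930) belongs to the FACIT class, fibril-associated collagens that decorate fibrils, and had 1.70, 1.87 and 1.97 FPKM in EpiLC, 9.38, 9.58 and 9.88 FPKM in Sirt1KO Otx2KD, 0.928, 0.455 and 0.570 FPKM in Sirt1KO, and 9.09, 9.18 and 8.31 FPKM in wild-type ESC. Sirt1KO Otx2KD lay just above wild-type ESC, and both were well above EpiLC and Sirt1KO. Its type IX partner Col9a3 ran otherwise, at 0.928 ± 0.296 FPKM in EpiLC, 0.381 ± 0.0822 FPKM in Sirt1KO Otx2KD, 0.846 ± 0.297 FPKM in Sirt1KO and 0.256 ± 0.171 FPKM in wild-type ESC. The third type IX chain, Col9a1, did not pass 0.102 FPKM. Col12a1, a FACIT gene of tendon and other dense tissue, averaged 0.274 ± 0.0507 FPKM in EpiLC, 2.83 ± 0.301 FPKM in Sirt1KO Otx2KD, 0.172 ± 0.0653 FPKM in Sirt1KO and 2.53 ± 0.442 FPKM in wild-type ESC. Sirt1KO Otx2KD and wild-type ESC overlapped for Col12a1. Col14a1, another FACIT gene, averaged 0.107 ± 0.0321 FPKM in EpiLC, 1.38 ± 0.192 FPKM in Sirt1KO Otx2KD, 0.0753 ± 0.0309 FPKM in Sirt1KO and 0.232 ± 0.0531 FPKM in wild-type ESC, and so had a mean above 1 FPKM in Sirt1KO Otx2KD alone. Col8a1, a short-chain network collagen of vessel walls and of the membrane behind the cornea, averaged 0.918 ± 0.134 FPKM in EpiLC, 1.36 ± 0.0873 FPKM in Sirt1KO Otx2KD, 0.0837 ± 0.0290 FPKM in Sirt1KO and 2.33 ± 0.0805 FPKM in wild-type ESC. It was the 1 collagen of the other types with its highest group mean in wild-type ESC.

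The 22 collagens that were not expressed stayed at or below 0.788 FPKM, the value of Col16a1 in its highest library. They comprised the fibrillar genes Col11a2, Col24a1 and Col27a1, the basement membrane genes Col4a3, Col4a4, Col4a6 and Col15a1, and 15 others. These others were Col6a4, Col6a5, Col6a6, Col8a2, Col9a1, Col10a1, Col13a1, Col16a1, Col17a1, Col19a1, Col20a1, Col22a1, Col23a1, Col25a1 and Col28a1. Col19a1 was listed at 0 in all 12 libraries, and 6 genes, Col19a1 included, stayed under 0.1 FPKM. Col15a1, the other multiplexin beside Col18a1, was at 0.182 ± 0.0457 FPKM in EpiLC and listed at 0 in 8 of the 12 libraries. A further locus merges Col7a1 with the microRNA gene Mir711 and so fell outside the rule. It had 0.643, 0.585 and 0.606 FPKM in EpiLC, its highest group, and was under 1 FPKM everywhere.

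Summed over the 42 genes, collagen levels averaged 148 ± 1.61 FPKM in EpiLC, 279.7 ± 1.83 FPKM in Sirt1KO Otx2KD, 39.3 ± 4.52 FPKM in Sirt1KO and 172 ± 13.9 FPKM in wild-type ESC. The fibrillar sum was 45.2 ± 0.578 FPKM in EpiLC, 210.3 ± 1.73 FPKM in Sirt1KO Otx2KD, 8.75 ± 0.877 FPKM in Sirt1KO and 119 ± 10.3 FPKM in wild-type ESC. Of the collagen sum, fibrillar genes thus made up 30.5% in EpiLC, 75.2% in Sirt1KO Otx2KD, 22.3% in Sirt1KO and 69.6% in wild-type ESC, and these shares did not overlap between groups. Basement membrane genes summed to 82.8 ± 1.49 FPKM in EpiLC, 36.1 ± 1.74 FPKM in Sirt1KO Otx2KD, 26.5 ± 3.42 FPKM in Sirt1KO and 25.6 ± 2.16 FPKM in wild-type ESC. Sirt1KO and wild-type ESC overlapped in this sum although the fibrillar sum was 13.7-fold lower in Sirt1KO. Most of the basement membrane sum was Col18a1, which alone gave, of all collagen FPKM, 48.3% in EpiLC, 9.76% in Sirt1KO Otx2KD, 60.1% in Sirt1KO and 11.4% in wild-type ESC. Without Col18a1 the basement membrane sum was 11.1 ± 0.124 FPKM in EpiLC, 8.76 ± 0.616 FPKM in Sirt1KO Otx2KD, 2.87 ± 0.261 FPKM in Sirt1KO and 6.06 ± 0.713 FPKM in wild-type ESC. Sums over members are descriptions and were not tested.

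**Figure D2:**
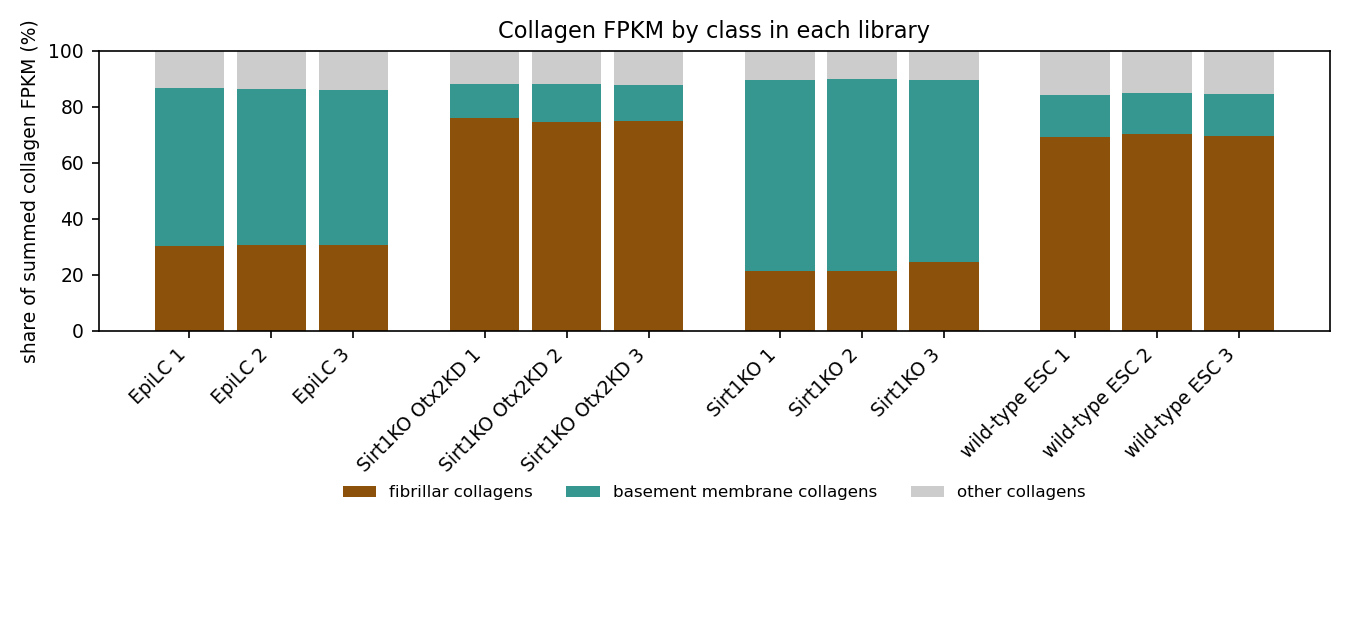
Share of the summed collagen FPKM (%) taken by fibrillar, basement membrane and other collagens in each of the 12 libraries, grouped as EpiLC, Sirt1KO Otx2KD, Sirt1KO and wild-type ESC. Fibrillar genes averaged 30.5% in EpiLC, 75.2% in Sirt1KO Otx2KD, 22.3% in Sirt1KO and 69.6% in wild-type ESC.

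FPKM is per length, so levels of different chains can be set against each other within a library. Per unit of Col3a1, the level of Col1a2 stood at 0.679 ± 0.0319 in EpiLC, 0.627 ± 0.0214 in Sirt1KO Otx2KD, 0.567 ± 0.0863 in Sirt1KO and 0.608 ± 0.0372 in wild-type ESC. Per unit of Col3a1, that of Col5a2 stood at 0.210 ± 0.0157 in EpiLC, 0.206 ± 0.00916 in Sirt1KO Otx2KD, 0.240 ± 0.0320 in Sirt1KO and 0.207 ± 0.0249 in wild-type ESC. These proportions moved little while the level of Col3a1 itself was 35.9-fold higher in Sirt1KO Otx2KD than in Sirt1KO. Col18a1 per unit of Col3a1 was 4.63 ± 0.197 in EpiLC, 0.363 ± 0.0132 in Sirt1KO Otx2KD, 11.3 ± 1.70 in Sirt1KO and 0.537 ± 0.0123 in wild-type ESC. Type I chains did not keep 1 proportion, since the ratio of Col1a1 to Col1a2 was 0.722 ± 0.0455 in EpiLC, 1.07 ± 0.0689 in Sirt1KO Otx2KD and 1.72 ± 0.109 in wild-type ESC. In Sirt1KO it was 1.76 and 1.19 in the 2 libraries in which both chains reached 1 FPKM. Across libraries of EpiLC, Sirt1KO Otx2KD and wild-type ESC this ratio did not overlap. The 2 genes lie on different chromosomes, whose medians against wild-type ESC are given below, and the ratio holds any such shift. The ratio of Col4a1 to Col4a2 was 2.17 ± 0.0642 in EpiLC, 1.94 ± 0.351 in Sirt1KO Otx2KD and 1.78 ± 0.171 in wild-type ESC, with overlap except between EpiLC and wild-type ESC. That of Col6a1 to Col6a2 was 1.44 ± 0.0502 in EpiLC, 1.34 ± 0.0955 in Sirt1KO Otx2KD and 1.34 ± 0.163 in wild-type ESC, all within overlapping ranges.

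Whole chromosomes differed from wild-type ESC in the other groups, and this touches Col1a1 on chromosome 11 and Col4a1 and Col4a2 on chromosome 8. The median log2 fold change of the 1039 tested genes of chromosome 11 was -0.46 in EpiLC, -0.39 in Sirt1KO Otx2KD and -0.49 in Sirt1KO, each against wild-type ESC. For the 680 tested genes of chromosome 8 it was 0.40 in EpiLC, 0.36 in Sirt1KO Otx2KD and 0.46 in Sirt1KO. Chromosome 6, which holds Col1a2, moved less. The median of its 575 tested genes was 0.03 in EpiLC, 0.19 in Sirt1KO Otx2KD and 0.15 in Sirt1KO, each against wild-type ESC. Values of Col1a2 are given without removal of this median. In EpiLC against Sirt1KO, the median was 0.02 for chromosome 11 and -0.05 for chromosome 8. In Sirt1KO Otx2KD against Sirt1KO it was 0.07 for chromosome 11 and -0.10 for chromosome 8. For collagens, values with chromosome medians removed are given beside the calls they change or the values they move most. Other genes named below are touched too: P4hb, Sparc, Fkbp10, Mrc2 and Timp2 on chromosome 11, and Glt25d1, Itgb1, Mmp2 and Zfp42 on chromosome 8. Their values are given without removal of chromosome medians, so they hold any shift of the chromosome. The part of these shifts in the collagen differences was not tested further.

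Tests used limma on log2(FPKM + 1) across all 12320 tested named loci, with calls at a Benjamini-Hochberg adjusted p under 0.05, and fold changes are on that scale, which understates those of low genes. EpiLC against wild-type ESC asks how collagens differ between the primed-like and the naive state. Most fibrillar genes were lower in EpiLC, and most basement membrane genes were higher. Of the 20 tested collagens, 5 were higher (background 35.8% of all tested loci) and 10 lower (background 38.8%). By at least 1 log2 unit, 1 was higher (background 6.53%) and 5 were lower (background 8.58%). Neither 5 nor 10 of 20 lay far from these background shares. The 2 counts are therefore not read as a result about collagens as a whole. Of the 15 collagens that reached 1 FPKM in at least 3 groups, 4 were higher and 7 lower. Changes of 1 unit or more among these 15 numbered 1 higher and 4 lower, and their median was -0.12. Among fibrillar genes 6 of 8 fell and 0 rose, also 0 at an unadjusted p under 0.05 (limma), with a median log2 fold change of -0.99 beside -0.02 over all tested loci. Col1a1 changed most (log2 fold change -2.18 ± 0.13 SE, adjusted p = 6.31e-09), at -1.70 with chromosome medians removed, and Col3a1 fell by 1.17 ± 0.05 (adjusted p = 1.61e-10). Col1a2, Col5a1, Col5a2 and Col11a1 fell as well, with log2 fold changes of -0.998, -1.10, -0.99 and -0.61. Col11a1 entered the tests only through Sirt1KO Otx2KD and wild-type ESC libraries, so its fall depends on the filter. The fibrillar count and median include it. Col2a1 (-0.02, adjusted p = 0.859) and Col5a3 (-0.12, adjusted p = 0.263) did not pass.

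Among basement membrane genes 3 of 4 rose in EpiLC over wild-type ESC (background 35.8% higher and 38.8% lower). Col18a1 rose by 1.83 ± 0.08 log2 units (adjusted p = 6.06e-11), the 1 collagen to rise by at least 1 unit, and its mean was 3.68-fold higher. Col4a1 rose by 0.92 ± 0.09 (adjusted p = 5.73e-07) and Col4a2 by 0.58 ± 0.10 (adjusted p = 0.000158), while Col4a5 fell by 0.29. With chromosome medians removed, Col4a1 was at 0.52 and still passed, and Col4a2 was at 0.19 and did not (adjusted p = 0.113). Of the 8 others, 2 rose, Col6a3 (0.89 ± 0.09) and Col9a3 (0.61 ± 0.14), and 3 fell, Col9a2 (-1.79 ± 0.10), Col12a1 (-1.46 ± 0.10) and Col8a1 (-0.80 ± 0.08). The counts over these 8 lay near the background shares. Col9a3 entered the tests only through EpiLC and Sirt1KO libraries, and Col12a1 only through Sirt1KO Otx2KD and wild-type ESC. Col6a1 (0.22, adjusted p = 0.0605), Col6a2 (0.12, adjusted p = 0.230) and Col14a1 (-0.15, adjusted p = 0.142) did not pass. Col6a1 passed with median-of-ratios scaling (0.23, adjusted p = 0.0432) and without wild-type ESC replicate 2 (0.31, adjusted p = 0.0144). Col14a1 passed with a pseudocount of 0.1 (-0.68, adjusted p = 0.0472) and without variance trend and robustness (-0.15, adjusted p = 0.0400).

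**Figure D3:**
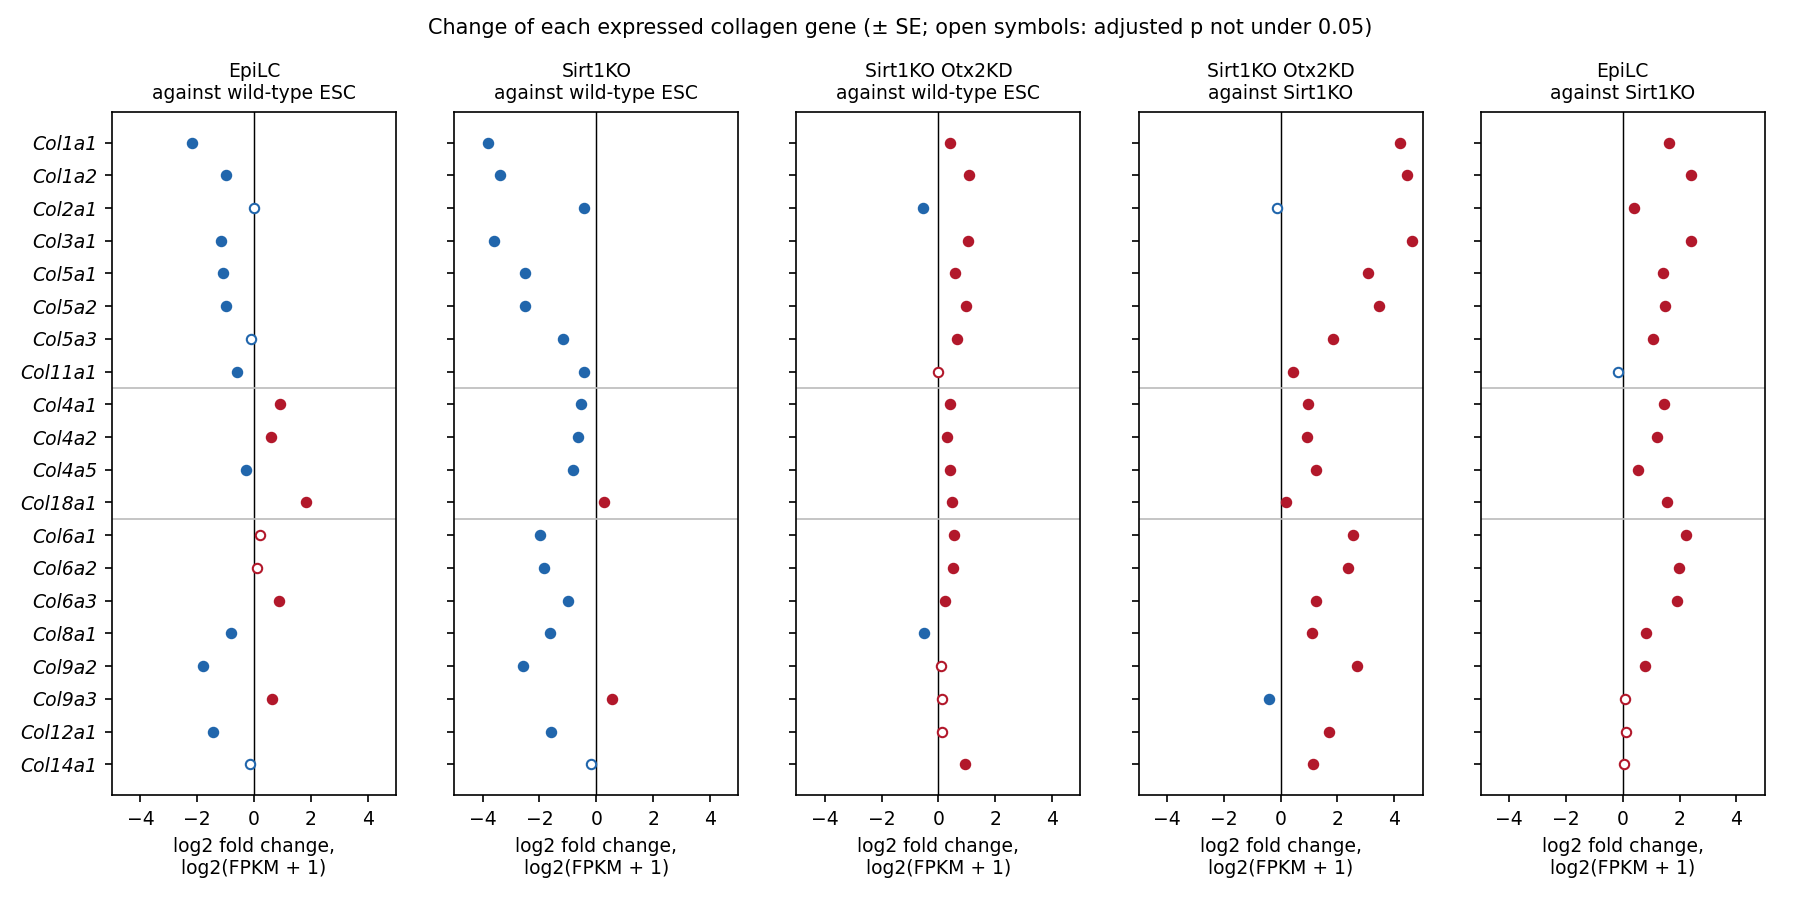
Log2 fold change of each expressed collagen on the log2(FPKM + 1) scale, ± SE, in 5 comparisons, with fibrillar genes at the top, basement membrane genes in the middle and others at the bottom. Red marks higher and blue lower values in the group named first, and open symbols did not pass an adjusted p under 0.05. In Sirt1KO against wild-type ESC 17 of 20 genes were called lower.

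Sirt1KO against wild-type ESC asks what loss of Sirt1 changes within naive medium. Collagens of each class were lower in Sirt1KO, the most abundant fibrillar ones by more than 10-fold. Of the 20 tested, 2 were higher (background 32.4%) and 17 lower (background 32.7%). By at least 1 log2 unit, 0 were higher (background 2.73%; 2 were higher at an unadjusted p under 0.05 by limma) and 12 lower (background 4.89%). The median log2 fold change was -1.38 over the collagens and 0.01 over all tested loci. Of the 15 collagens that reached 1 FPKM in at least 3 groups, 1 was higher and 14 lower. Changes of 1 unit or more among these 15 numbered 0 higher and 11 lower, and their median was -1.86. All 8 fibrillar genes tested fell, with a median of -2.50. Of these, Col5a2, Col5a3 and Col11a1 reached 1 FPKM in no Sirt1KO library and entered through other groups alone. The fibrillar count and median thus depend on the filter. Means of Col1a1 were 21.1-fold lower in Sirt1KO (-3.81 ± 0.13, adjusted p = 8.93e-11), those of Col1a2 18.6-fold (-3.40 ± 0.08, adjusted p = 5.22e-13), and those of Col3a1 17.3-fold (-3.59 ± 0.05, adjusted p = 1.83e-14). Removing chromosome medians left Col1a1 at -3.32. Col5a1 and Col5a2 fell by 2.50 and 2.49 log2 units and Col5a3 by 1.18, and the smallest fibrillar changes were those of Col2a1 (-0.43) and Col11a1 (-0.43).

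Type IV genes fell in Sirt1KO, by 0.54 ± 0.09 for Col4a1, 0.63 ± 0.10 for Col4a2 and 0.83 ± 0.08 for Col4a5, against wild-type ESC. With chromosome medians removed Col4a1 stood at -0.996 and Col4a2 at -1.09. Col18a1 was higher in Sirt1KO (0.26 ± 0.08, adjusted p = 0.00885), as was Col9a3 (0.55 ± 0.14, adjusted p = 0.00393), which entered the tests only through EpiLC and Sirt1KO libraries. Each type VI chain fell by at least 1 unit: Col6a1 by 1.99 ± 0.10, Col6a2 by 1.86 ± 0.09 and Col6a3 by 1.01 ± 0.09. Col9a2 (-2.59 ± 0.10), Col8a1 (-1.62 ± 0.08) and Col12a1 (-1.58 ± 0.10) fell too, and Col14a1 did not pass (-0.20, adjusted p = 0.0737). None of the type VI chains, Col9a2, Col8a1 or Col12a1 reached 1 FPKM in a Sirt1KO library, so their falls depend on the filter. Col14a1 passed with chromosome medians removed (-0.23, adjusted p = 0.0469), with a pseudocount of 0.1 (-0.93, adjusted p = 0.0123), with no filter (adjusted p = 0.0316) and without variance trend and robustness (adjusted p = 0.0155).

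Sirt1KO Otx2KD against Sirt1KO asks what knockdown of Otx2 changes where Sirt1 is already lost. Nearly every expressed collagen was higher with Otx2 knocked down. Of the 20 tested, 18 were higher (background 31.1%) and 1 lower (background 31.5%). By at least 1 log2 unit, 14 were higher (background 3.82%) and 0 lower (background 1.88%; 1 was lower at an unadjusted p under 0.05 by limma). The median log2 fold change was 1.47, beside -0.01 over all tested loci. Of the 15 collagens that reached 1 FPKM in at least 3 groups, 14 were higher and 0 lower (limma, 0 lower at an unadjusted p under 0.05). Changes of 1 unit or more among these 15 numbered 11 higher and 0 lower, and their median was 2.38. Col3a1 rose by 4.62 ± 0.05 (adjusted p = 1.24e-15), and its mean was 35.9-fold higher. Col1a2 rose by 4.46 ± 0.08 (adjusted p = 6.50e-14), and its mean was 39.6-fold higher. Col1a1 rose by 4.21 ± 0.13 (adjusted p = 6.79e-11), and its mean was 27.9-fold higher. With Col5a2 (3.45), Col5a1 (3.08), Col5a3 (1.85) and Col11a1 (0.43), 7 of the 8 fibrillar genes rose. Col5a2, Col5a3 and Col11a1 reached 1 FPKM in no Sirt1KO library, so this count depends on the filter. Col2a1 did not pass (-0.11, adjusted p = 0.326) and its libraries overlapped.

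All 4 basement membrane genes tested rose in Sirt1KO Otx2KD over Sirt1KO (background 31.1% higher). Col4a1 stood at 0.96 ± 0.09, Col4a2 at 0.92 ± 0.10 and Col4a5 at 1.23 ± 0.08. Col4a5 entered the tests only through Sirt1KO Otx2KD libraries, so it had to be higher there and its rise depends on the filter. Col18a1 changed least of the 4 (0.21 ± 0.08, adjusted p = 0.0287) and its libraries overlapped. Its call was lost without Sirt1KO Otx2KD replicate 2 (0.18, adjusted p = 0.0955) or 3 (0.21, adjusted p = 0.0575) and without Sirt1KO replicate 2 (0.17, adjusted p = 0.110) or 3 (0.15, adjusted p = 0.132). Of the others, Col9a2 (2.69), Col6a1 (2.54), Col6a2 (2.38), Col12a1 (1.71), Col6a3 (1.24), Col14a1 (1.14) and Col8a1 (1.12) rose. None of these reached 1 FPKM in a Sirt1KO library, and Col14a1 did so only in Sirt1KO Otx2KD, so their rises depend on the filter. Col9a3 was the 1 gene lower (-0.41 ± 0.14, adjusted p = 0.0236). That call was lost without Sirt1KO Otx2KD replicate 2 (-0.39, adjusted p = 0.0578) or 3 (-0.38, adjusted p = 0.0682) and without Sirt1KO replicate 1 (-0.28, adjusted p = 0.112).

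Sirt1KO Otx2KD was also set against wild-type ESC. The EpiLC and Sirt1KO comparisons use the same wild-type ESC libraries, so these values stand beside theirs and are not separate evidence. All comparisons that include Sirt1KO, above and below, likewise share its libraries. Lower values in Sirt1KO and higher values against it are thus not separate evidence either. Of the 20 collagens, 14 were higher in Sirt1KO Otx2KD (background 27.1%) and 2 lower (background 26.8%). By at least 1 log2 unit, 2 were higher (background 1.49%) and 0 lower (background 1.75%; 2 were lower at an unadjusted p under 0.05 by limma). The median was 0.42, beside -0.00 over all tested loci. Of the 15 collagens that reached 1 FPKM in at least 3 groups, 12 were higher and 2 lower. Changes of 1 unit or more among these 15 numbered 2 higher and 0 lower, and their median was 0.47. Col1a2 (1.07 ± 0.08, adjusted p = 8.79e-08) and Col3a1 (1.03 ± 0.05, adjusted p = 4.10e-09) were the 2 that rose by at least 1 unit, with means 2.14-fold and 2.07-fold those of wild-type ESC. The median of chromosome 6, which holds Col1a2, was 0.19 in this comparison. Col5a2 (0.96), Col14a1 (0.95), Col5a3 (0.67), Col5a1 (0.58), Col6a1 (0.54), Col6a2 (0.52), Col18a1 (0.47) and Col4a5 (0.41) rose by less, as did Col1a1 (0.40 ± 0.13, adjusted p = 0.0161). Col2a1 (-0.54 ± 0.10) and Col8a1 (-0.50 ± 0.08) fell.

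Some of these calls were lost without 1 library or under another setting. That of Col1a1 was lost without Sirt1KO Otx2KD replicate 1 (0.37, adjusted p = 0.0532) or wild-type ESC replicate 1 (0.28, adjusted p = 0.0673), and Col1a1 stood at 0.81 with chromosome medians removed. Col4a1 was at 0.42 ± 0.09 (adjusted p = 0.00151) and at 0.045 with chromosome medians removed (adjusted p = 0.707). Col4a2 was at 0.29 ± 0.10 (adjusted p = 0.0313) and at -0.09 with chromosome medians removed (adjusted p = 0.486). Its call also ended when Sirt1KO Otx2KD replicate 2 (0.29, adjusted p = 0.0604) or 3 (0.20, adjusted p = 0.144) or wild-type ESC replicate 1 (0.25, adjusted p = 0.0979) or 2 (0.27, adjusted p = 0.0807) was left out. Col6a3 was at 0.23 ± 0.09 (adjusted p = 0.0412), a call that ended when Sirt1KO Otx2KD replicate 2 (0.21, adjusted p = 0.0996) or 3 (0.18, adjusted p = 0.149) or wild-type ESC replicate 2 (0.16, adjusted p = 0.168) or 3 (0.25, adjusted p = 0.0552) was left out. Col11a1 (0.00), Col9a2 (0.11), Col9a3 (0.14) and Col12a1 (0.12) did not pass.

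EpiLC against Sirt1KO sets these groups directly against each other, without wild-type ESC. Of the 20 tested collagens, 16 were higher in EpiLC (background 34.0%) and 0 lower (limma, also 0 at an unadjusted p under 0.05, background 35.1%). By at least 1 log2 unit, 12 were higher (background 4.59%) and 0 lower (background 4.89%). The median was 1.31, beside -0.01 over all tested loci. Of the 15 collagens that reached 1 FPKM in at least 3 groups, 15 were higher and 0 lower (limma, 0 lower at an unadjusted p under 0.05). Changes of 1 unit or more among these 15 numbered 12 higher and 0 lower, and their median was 1.50. Col3a1 (2.41 ± 0.05, adjusted p = 4.06e-13), Col1a2 (2.40 ± 0.08, adjusted p = 1.05e-11) and Col6a1 (2.21 ± 0.10, adjusted p = 2.23e-10) differed most. Col6a2 (1.97), Col6a3 (1.89), Col1a1 (1.63), Col18a1 (1.57), Col5a2 (1.50), Col4a1 (1.45), Col5a1 (1.40), Col4a2 (1.21) and Col5a3 (1.06) were higher in EpiLC as well. Col8a1 (0.82), Col9a2 (0.79), Col4a5 (0.53) and Col2a1 (0.41) were higher by less than 1 unit. Col11a1 (-0.18, adjusted p = 0.0705), Col9a3 (0.06), Col12a1 (0.12) and Col14a1 (0.04) did not pass. All of these lie outside the 15, so the count over the 15 leaves out every gene that did not pass. Col11a1 passed as lower with a pseudocount of 0.1 (-0.52, adjusted p = 0.0306), with no filter (adjusted p = 0.0191), without variance trend and robustness (adjusted p = 0.0112) and without EpiLC replicate 3 (-0.23, adjusted p = 0.0450).

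Genes that modify, export, trim and bind collagen were taken from lists written from general knowledge, with earlier results of these data known. Their counts are therefore not separate evidence for the collagen values. Of the 9 tested genes of procollagen processing and crosslinking, 0 rose and 9 fell in EpiLC against wild-type ESC (0 rose at an unadjusted p under 0.05, limma; background 35.8% higher and 38.8% lower), with a median log2 fold change of -0.98 beside -0.02 over all tested loci. In Sirt1KO against wild-type ESC 1 rose and 7 fell (background 32.4% higher and 32.7% lower), with a median of -1.39, and in Sirt1KO Otx2KD against Sirt1KO 7 rose and 2 fell (background 31.1% higher and 31.5% lower), with a median of 1.04. Lox, the lysyl oxidase that crosslinks fibrillar collagen, averaged 3.22 ± 0.271 FPKM in EpiLC, 39.4 ± 1.30 FPKM in Sirt1KO Otx2KD, 1.65 ± 0.295 FPKM in Sirt1KO and 26.2 ± 2.41 FPKM in wild-type ESC. Lox thus had the order of Col3a1. Its relative Loxl2 had the same order, at 4.43 ± 0.560 FPKM in EpiLC, 22.2 ± 0.589 FPKM in Sirt1KO Otx2KD, 0.846 ± 0.107 FPKM in Sirt1KO and 9.65 ± 0.591 FPKM in wild-type ESC. Loxl1, another relative, fell by 1.82 in Sirt1KO against wild-type ESC and was 2.95 units higher in Sirt1KO Otx2KD than in Sirt1KO. Pcolce, an enhancer of procollagen C-proteinase, ran otherwise: it fell by 1.91 in EpiLC but rose by 0.37 in Sirt1KO, each against wild-type ESC. Pcolce2, its relative, fell by 2.24 in EpiLC against wild-type ESC and by 2.40 against Sirt1KO. Loxl4, a further relative of Lox, fell by 0.64 in Sirt1KO Otx2KD against wild-type ESC.

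Lists of the intracellular machinery had medians nearer to 0. Of 12 tested loci for chain modification, 2 rose and 5 fell in EpiLC against wild-type ESC, with a median of -0.28, and 2 rose and 5 fell in Sirt1KO against wild-type ESC, with a median of -0.15. Between Sirt1KO Otx2KD and Sirt1KO 6 rose and 2 fell, with a median of 0.25. Over all tested loci, 35.8% rose and 38.8% fell in the first of these comparisons, 32.4% and 32.7% in the second, and 31.1% and 31.5% in the third. The symbol Plod2, a lysyl hydroxylase, is carried by 2 of these loci. The prolyl hydroxylase subunits P4ha1 and P4hb fell in Sirt1KO (-0.93 ± 0.05 and -0.42 ± 0.03) against wild-type ESC, while the collagen galactosyltransferase Glt25d1 rose (0.90 ± 0.05). The median in this comparison was -0.49 for chromosome 11, which holds P4hb, and 0.46 for chromosome 8, which holds Glt25d1. Lepre1 and Leprel2, prolyl 3-hydroxylases, and their partner Crtap were 0.56, 1.04 and 0.58 units higher in Sirt1KO Otx2KD than in Sirt1KO. Lepre1 fell by 0.91 in EpiLC against wild-type ESC and by 0.70 against Sirt1KO, and the prolyl isomerase gene Ppib fell by 0.84 in EpiLC against Sirt1KO. Of 9 tested genes of folding and export, 1 rose and 6 fell in EpiLC against wild-type ESC (background 35.8% higher and 38.8% lower). In Sirt1KO against wild-type ESC 1 rose and 6 fell (background 32.4% higher and 32.7% lower). In Sirt1KO Otx2KD against Sirt1KO 7 rose and 0 fell (0 at an unadjusted p under 0.05, limma; background 31.1% higher and 31.5% lower). Serpinh1, the collagen chaperone Hsp47, averaged 88.1 ± 1.30 FPKM in Sirt1KO Otx2KD and 67.5 ± 3.48 FPKM in Sirt1KO, a difference of 0.38 ± 0.04 log2 units beside 4.62 for Col3a1. Sec23a, of the COPII coat that carries procollagen from the endoplasmic reticulum, fell by 0.72 in EpiLC and rose by 0.26 in Sirt1KO Otx2KD, each against wild-type ESC, and fell by 0.72 in EpiLC against Sirt1KO. Sec24d, of the same coat, and Mia3, which loads procollagen into carriers, fell by 0.53 and 0.43 in Sirt1KO against wild-type ESC, and Mia3 was 0.53 units higher in Sirt1KO Otx2KD than in Sirt1KO. The prolyl isomerase Fkbp10 rose by 0.92 in EpiLC over wild-type ESC. Its relative Fkbp14 rose by 0.59 in Sirt1KO Otx2KD over wild-type ESC and fell by 1.21 in EpiLC against Sirt1KO.

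Of the 4 tested collagen receptors, 3 rose and 1 fell in EpiLC against wild-type ESC, 2 rose and 2 fell in Sirt1KO against wild-type ESC, and 2 rose and 2 fell in Sirt1KO Otx2KD against Sirt1KO. Over all tested loci, 35.8% rose and 38.8% fell in the first of these comparisons, 32.4% and 32.7% in the second, and 31.1% and 31.5% in the third. The discoidin receptor Ddr2, which binds fibrillar collagen, fell in EpiLC (-0.81 ± 0.11) and in Sirt1KO (-1.12 ± 0.11), each against wild-type ESC, and was 1.95 ± 0.11 units higher in Sirt1KO Otx2KD than in Sirt1KO. Mrc2, an endocytic collagen receptor, fell by 1.15 in Sirt1KO against wild-type ESC, and was 1.24 units higher in Sirt1KO Otx2KD and 1.44 higher in EpiLC, each against Sirt1KO. Ddr1, the other discoidin receptor, rose by 0.73 in EpiLC over wild-type ESC and by 0.47 over Sirt1KO. Itgb1, the beta chain of collagen-binding and other integrins, had another order, at 98.6 ± 4.08 FPKM in EpiLC, 59.8 ± 1.64 FPKM in Sirt1KO Otx2KD, 77.6 ± 1.52 FPKM in Sirt1KO and 47.9 ± 1.46 FPKM in wild-type ESC. Of 7 tested proteases and inhibitors, 7 rose and 0 fell in Sirt1KO Otx2KD against Sirt1KO (0 at an unadjusted p under 0.05, limma; background 31.1% higher and 31.5% lower). Against wild-type ESC, 3 rose and 3 fell in EpiLC (background 35.8% higher and 38.8% lower), and 1 rose and 4 fell in Sirt1KO (background 32.4% higher and 32.7% lower). Timp2, an inhibitor of matrix metalloproteinases, averaged 5.95 ± 0.416 FPKM in EpiLC, 31.0 ± 1.69 FPKM in Sirt1KO Otx2KD, 1.56 ± 0.204 FPKM in Sirt1KO and 11.6 ± 1.57 FPKM in wild-type ESC, which is again the order of Col3a1. The gelatinase Mmp2 rose by 1.93 ± 0.11 in EpiLC over wild-type ESC. Timp3, a further inhibitor, fell by 1.47 in Sirt1KO against wild-type ESC and was 2.07 units higher in Sirt1KO Otx2KD than in Sirt1KO. Timp1, of the same family, fell by 1.28 in EpiLC against wild-type ESC and by 1.12 against Sirt1KO. The membrane-bound collagenase Mmp14 rose by 0.70 in Sirt1KO Otx2KD over wild-type ESC and by 0.97 over Sirt1KO, and Ctsk, the collagen-degrading cathepsin K, fell by 0.78 in Sirt1KO against wild-type ESC.

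Of 8 tested partners of type IV collagen in the basement membrane, 3 rose and 3 fell in EpiLC against wild-type ESC, shares near the background of 35.8% higher and 38.8% lower, with a median of 0.00, where the peroxidasin Pxdn, which crosslinks type IV collagen, rose by 2.14 ± 0.11 and nidogen Nid1 fell by 1.72 ± 0.06. The laminin chain Lamb1 rose by 1.15 ± 0.05. In Sirt1KO against wild-type ESC 5 rose and 3 fell (background 32.4% higher and 32.7% lower), and in Sirt1KO Otx2KD against wild-type ESC 7 rose and 1 fell (background 27.1% higher and 26.8% lower). The laminin chains Lamc1 and Lama5 rose by 0.81 and 0.57 in Sirt1KO Otx2KD over wild-type ESC, and Lamc1 by 0.41 in Sirt1KO. The nidogen Nid2 fell by 0.70 in Sirt1KO against wild-type ESC. Nid2 and Hspg2, the proteoglycan perlecan, were 0.55 and 0.76 units higher in Sirt1KO Otx2KD than in Sirt1KO. Lama1, a laminin chain of the early basement membrane, averaged 0.732 ± 0.101 FPKM in EpiLC, 6.27 ± 0.0461 FPKM in Sirt1KO Otx2KD, 6.57 ± 0.333 FPKM in Sirt1KO and 3.24 ± 0.193 FPKM in wild-type ESC. Its lowest group was EpiLC, the highest group of Col4a1.

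Markers of fibroblasts and feeder cells, in a list without collagens, were mostly lower in Sirt1KO than in wild-type ESC and mostly higher in Sirt1KO Otx2KD than in Sirt1KO. Of 13 tested markers, 0 rose and 12 fell in Sirt1KO against wild-type ESC (0 rose at an unadjusted p under 0.05, limma; background 32.4% higher and 32.7% lower), with a median of -0.82. In Sirt1KO Otx2KD against Sirt1KO 11 rose and 1 fell (background 31.1% higher and 31.5% lower), with a median of 1.25, and in Sirt1KO Otx2KD against wild-type ESC 9 rose and 2 fell (background 27.1% higher and 26.8% lower). In EpiLC against wild-type ESC 4 rose and 6 fell, near the background of 35.8% and 38.8%. Summed over the 14 markers, the level ran from 187 to 207 FPKM in EpiLC, 168 to 188 FPKM in Sirt1KO Otx2KD, 119 to 124 FPKM in Sirt1KO and 226 to 245 FPKM in wild-type ESC. Vim, an intermediate filament gene that stem cells also express, averaged 136 ± 5.12 FPKM in EpiLC, 68.6 ± 6.27 FPKM in Sirt1KO Otx2KD, 97.8 ± 7.38 FPKM in Sirt1KO and 171 ± 6.59 FPKM in wild-type ESC and was left out of a second sum after its values were seen. Without it the sums were 55.7 to 66.0 FPKM in EpiLC, 106 to 116 FPKM in Sirt1KO Otx2KD, 18.6 to 28.4 FPKM in Sirt1KO and 61.1 to 67.4 FPKM in wild-type ESC. The sum over all 14 was highest in wild-type ESC, and the sum without Vim was highest in Sirt1KO Otx2KD, so the likeness of the second to the fibrillar collagens rests on leaving Vim out. Sirt1KO was lowest in both.

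Postn, the matrix protein periostin, averaged 4.80 ± 0.859 FPKM in EpiLC, 29.4 ± 1.64 FPKM in Sirt1KO Otx2KD, 0.313 ± 0.0726 FPKM in Sirt1KO and 6.72 ± 0.0906 FPKM in wild-type ESC. Fbn1, the microfibril protein fibrillin, averaged 2.31 ± 0.108 FPKM in EpiLC, 6.70 ± 0.189 FPKM in Sirt1KO Otx2KD, 0.464 ± 0.0453 FPKM in Sirt1KO and 4.74 ± 0.305 FPKM in wild-type ESC. Both had the order of Col3a1. The proteoglycan Dcn averaged 5.46 ± 1.00 FPKM in EpiLC and 13.2 ± 0.568 FPKM in Sirt1KO Otx2KD, its highest group. Dcn was lowest in Sirt1KO, at 1.25 ± 0.234 FPKM, against 4.95 ± 0.995 FPKM in wild-type ESC. The smooth muscle actin Acta2 averaged 7.06 ± 1.21 FPKM in EpiLC and 18.6 ± 2.32 FPKM in Sirt1KO Otx2KD. Acta2 averaged 1.34 ± 0.461 FPKM in Sirt1KO, against 16.7 ± 1.87 FPKM in wild-type ESC. Its means had the order of Col3a1, though Sirt1KO Otx2KD and wild-type ESC libraries overlapped. Thy1, Twist1 and S100a4, of the same list, were highest in EpiLC. Thy1, a surface glycoprotein, averaged 15.5 ± 0.700 FPKM in EpiLC, 13.0 ± 1.42 FPKM in Sirt1KO Otx2KD, 5.33 ± 0.886 FPKM in Sirt1KO and 6.64 ± 0.557 FPKM in wild-type ESC, and the transcription factor Twist1 averaged 4.73 ± 0.546 FPKM in EpiLC, 2.25 ± 0.0746 FPKM in Sirt1KO Otx2KD, 1.36 ± 0.436 FPKM in Sirt1KO and 2.05 ± 0.260 FPKM in wild-type ESC. S100a4, a calcium-binding protein, averaged 10.5 ± 1.77 FPKM in EpiLC, 4.43 ± 0.764 FPKM in Sirt1KO Otx2KD, 1.28 ± 0.377 FPKM in Sirt1KO and 6.67 ± 0.585 FPKM in wild-type ESC. Thy1, Twist1 and S100a4 rose in EpiLC over wild-type ESC (1.11, 0.91 and 0.58), where most fibrillar collagens fell, and S100a4 fell by 0.51 in Sirt1KO Otx2KD against wild-type ESC. Over the list, 4 of 13 tested rose and 6 fell in EpiLC against wild-type ESC, Acta2 by 1.14. Fap did not pass 0.179 FPKM in any library and Twist2 did not pass 1.24 FPKM. Lum averaged 1.83 FPKM in EpiLC, 6.38 FPKM in Sirt1KO Otx2KD, 0.341 FPKM in Sirt1KO and 3.22 FPKM in wild-type ESC. Pdgfrb averaged 0.479, 1.12, 0.152 and 0.701 FPKM in the same groups, and both genes had the order of Col3a1. Prrx1, at 1.42, 2.255, 0.1355 and 1.02 FPKM in these groups, was highest in Sirt1KO Otx2KD. Tagln, at 7.46, 13.2, 10.95 and 9.59 FPKM in these groups, was lowest in EpiLC. The part of fibroblasts or feeder cells in the collagen differences was not tested. Per the labels' protocols the ESC grew on gelatin, and no feeder layer is named.

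**Figure D4:**
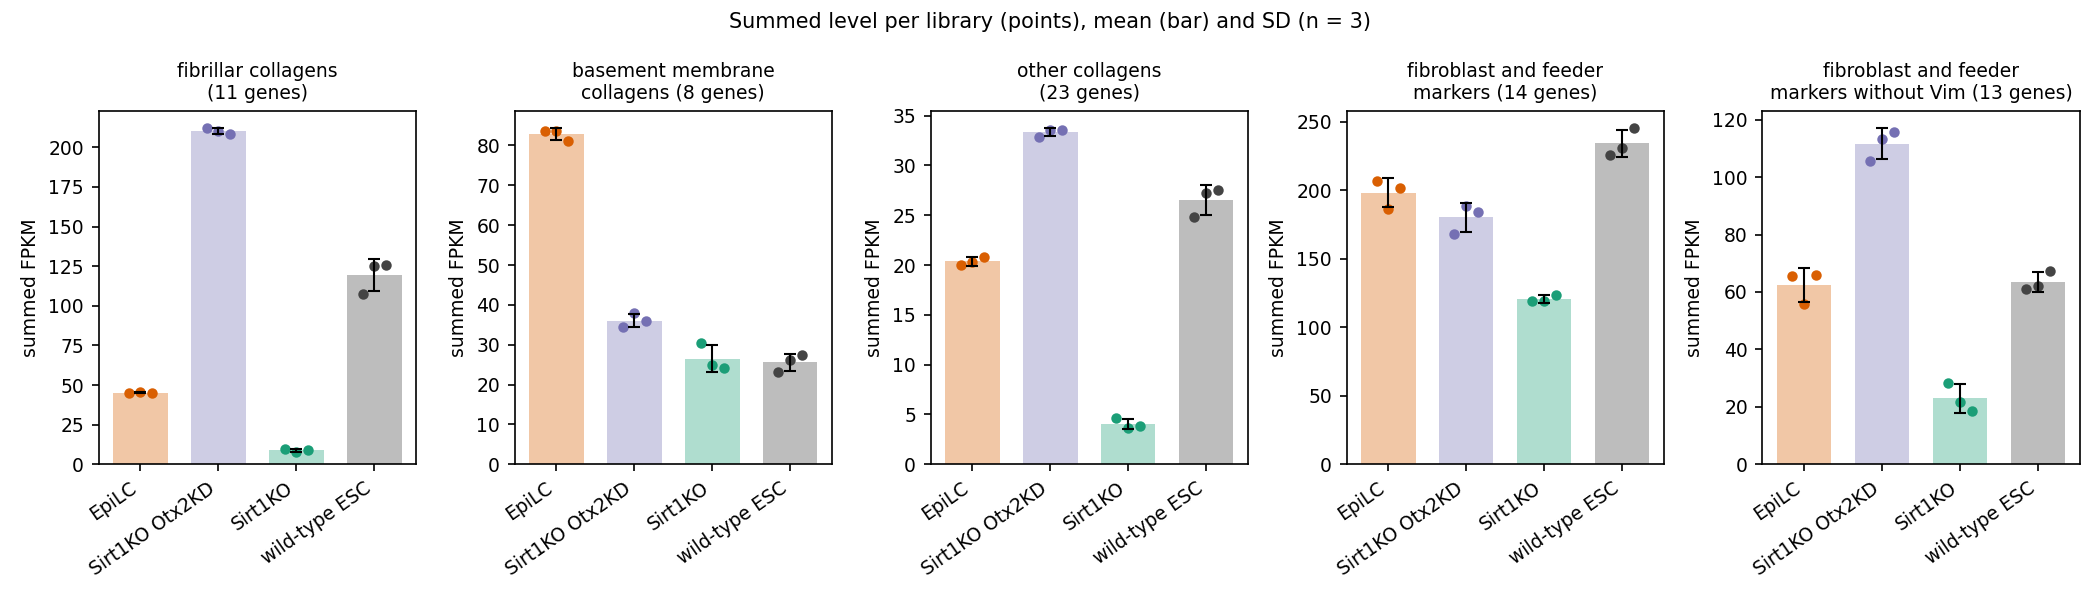
Summed FPKM of the 3 collagen classes and of the fibroblast and feeder markers, all 14 and the 13 without Vim, with points for libraries, bars for group means and error bars for SD (n = 3). The fibrillar sum and the marker sum without Vim are highest in Sirt1KO Otx2KD, the sum of all 14 markers is highest in wild-type ESC, all 3 are lowest in Sirt1KO, and the basement membrane sum is highest in EpiLC.

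Other cells that make collagens were looked for with 3 further lists. The 10 markers of primitive and parietal endoderm, which lays down a basement membrane, summed to 102 to 103 FPKM in EpiLC, 440.0 to 441 FPKM in Sirt1KO Otx2KD, 283 to 332 FPKM in Sirt1KO and 511 to 532 FPKM in wild-type ESC. Sparc, a collagen-binding matrix protein, made up most of that sum, at 95.3 ± 1.19 FPKM in EpiLC, 429 ± 0.695 FPKM in Sirt1KO Otx2KD, 302 ± 25.0 FPKM in Sirt1KO and 517 ± 10.9 FPKM in wild-type ESC. Of the 5 tested, 2 rose and 3 fell in EpiLC and 2 rose and 2 fell in Sirt1KO, each against wild-type ESC, near the backgrounds of 35.8% and 38.8% and of 32.4% and 32.7%, and 4 rose and 0 fell in Sirt1KO Otx2KD against Sirt1KO (0 fell at an unadjusted p under 0.05, limma; background 31.1% higher and 31.5% lower). Dab2, an endocytic adaptor, rose by 1.19 in EpiLC and by 0.65 in Sirt1KO Otx2KD over wild-type ESC, and by 1.27 in EpiLC and 0.72 in Sirt1KO Otx2KD over Sirt1KO. Thbd, thrombomodulin, fell by 1.02 in Sirt1KO against wild-type ESC and was 1.11 units higher in Sirt1KO Otx2KD than in Sirt1KO. The endoderm factors Gata6, Sox17, Sox7 and Foxa2 did not pass 0.430, 0.270, 0.300 and 0.191 FPKM in any library, and Gata4 did not pass 2.02 FPKM. The 6 endothelial markers summed to 2.24 to 2.61 FPKM in EpiLC, 8.17 to 8.55 FPKM in Sirt1KO Otx2KD, 3.76 to 4.52 FPKM in Sirt1KO and 6.67 to 7.18 FPKM in wild-type ESC, nearly all of it Tek, the 1 marker tested, at 2.00 ± 0.203 FPKM in EpiLC, 7.82 ± 0.220 FPKM in Sirt1KO Otx2KD, 3.90 ± 0.493 FPKM in Sirt1KO and 6.55 ± 0.229 FPKM in wild-type ESC. The defining endothelial markers Cdh5 and Emcn were at most 0.0341 FPKM and at 0. The 6 chondrocyte markers summed to 6.17 to 7.03 FPKM in EpiLC, 1.29 to 1.61 FPKM in Sirt1KO Otx2KD, 1.49 to 1.76 FPKM in Sirt1KO and 1.68 to 1.97 FPKM in wild-type ESC, with Matn3, the 1 marker tested, at 4.60 ± 0.485 FPKM in EpiLC, 0.0875 ± 0.0656 FPKM in Sirt1KO Otx2KD, 0.676 ± 0.117 FPKM in Sirt1KO and 0.774 ± 0.103 FPKM in wild-type ESC. The cartilage markers Hapln1 and Sox9 were at most 0.0389 and 0.490 FPKM. The part of these cell types in the collagen values was not tested.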

How the data were processed

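RNA-seq values of 12 mouse libraries were used, 3 for each of EpiLC, Sirt1KO Otx2KD, Sirt1KO and wild-type ESC. The authors aligned and quantified the reads with TopHat, Cufflinks and Cuffdiff on mm9, per the submitters' processing notes, with no versions given. The deposited unit is FPKM, 1 value per locus and library, per the file headers. Fragment counts and library sizes were not used here, so no counting interval was computed. Locus positions are those of the deposited tables.

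Collagens were taken by symbol, and 4778 of 27914 loci without a name were left out (95.3 to 96.9% of each library's summed FPKM). Named loci at 1 FPKM or more in at least 3 libraries were tested with limma 3.58.1 in R 4.3.3 on log2(FPKM + 1), with a group-means model over all 12 libraries (8 residual degrees of freedom), trended and robust variances and Benjamini-Hochberg adjustment over 12320 loci in each of 5 comparisons. The fit was tested on simulated data. Since FPKM are normalized by the authors, no count test was run. Of the tested loci, 141 share a symbol with another locus and 191 carry merged names.

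Every collagen at 1 FPKM or more in any library is named, with values per library where a group mean reached 5 FPKM. From each of 13 further lists (6 of collagen-related genes, 7 of cell markers) the called genes with the largest statistics, at most 3 a comparison, were each named at least once, though not with every comparison's value. Defining markers at low levels, and the remaining fibroblast and feeder markers, were named beside them. Members and lists were chosen with earlier results of these data known. Same-numbered replicates were checked for pairing: correlations of their deviations from group means ran from -0.107 to 0.170 over 15 pairs, 2 of them over 0.1, so the numbers were not taken to pair the libraries. Promoter sequences are from RefSeq for GRCm38.p6 and were matched by symbol. Alternatives covered the pseudocount, the filter, scaling, chromosome medians, the libraries in the fit, the variance model, unnamed loci, a replicate block and each library left out.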

Additional observations from a re-analysis of the deposited data

How the results depend on the processing

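Of 160 counts of called collagens under the alternatives, 148 stayed within 1.5 times the reported count and 12 moved further. Of 1590 values of single collagens, 1534 kept their direction and their side of the threshold, 35 no longer passed, 12 newly passed and 9 changed sign. With no filter, all 42 collagens were tested, and 11 in place of 5 were higher in EpiLC than in wild-type ESC. With 18 collagens left by a filter of 1 FPKM in all libraries of a group, 1 in place of 2 was higher in Sirt1KO than in wild-type ESC. The count lower in EpiLC than in Sirt1KO was 0 and became 1 with a pseudocount of 0.1, 1 with no filter and 1 without variance trend and robustness, each time Col11a1. The count lower in Sirt1KO Otx2KD than in Sirt1KO was 1 (Col9a3) and became 0 with no filter, 0 with the stricter filter and 0 with unnamed loci tested. For these the cause was not tested beyond the change in loci tested. Leaving out 1 library at a time gave, for collagens higher and lower, 5 to 6 and 10 to 10 in EpiLC against wild-type ESC, 2 to 2 and 17 to 17 in Sirt1KO against wild-type ESC, 12 to 13 and 2 to 2 in Sirt1KO Otx2KD against wild-type ESC, 17 to 18 and 0 to 1 in Sirt1KO Otx2KD against Sirt1KO, and 16 to 16 and 0 to 1 in EpiLC against Sirt1KO. The 1 gene lower in EpiLC than in Sirt1KO appeared without EpiLC replicate 3 and was Col11a1 (adjusted p = 0.0450).

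Signs changed only for values near 0, apart from Col4a2 in Sirt1KO Otx2KD against wild-type ESC, which stood at 0.29 and at -0.0903 with chromosome medians removed. Col11a1 in Sirt1KO Otx2KD against wild-type ESC stood at 0.00, at -0.0335 under quantile normalization, and from -0.0436 (without wild-type ESC replicate 3) to 0.0415 with 1 library left out. Col2a1 in EpiLC against wild-type ESC stood at -0.02, and from -0.0750 to 0.0257 (without wild-type ESC replicate 1) with 1 library left out. Col9a3 in EpiLC against Sirt1KO stood at 0.06, and from -0.0359 (without Sirt1KO replicate 3) to 0.196 with 1 library left out. Under settings other than a library left out, adjusted p in Sirt1KO Otx2KD against wild-type ESC for Col4a2 ran from 0.0540 (quantile normalization) to 0.486 where the call was lost, for Col6a3 from 0.0537 (unnamed loci tested) to 0.0889 (only the 2 groups), and for Col1a1 was 0.0727 with no filter. In Sirt1KO Otx2KD against Sirt1KO it ran for Col18a1 from 0.0504 (no variance trend) to 0.110 (no filter), and for Col9a3 from 0.0554 (unnamed loci tested) to 0.0790 (no filter).

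With the replicate number as a block, counts of higher and lower collagens were 5 and 10 in EpiLC against wild-type ESC, and 13 and 2 in Sirt1KO Otx2KD against wild-type ESC. The block ended the call of Col6a3 in the second of these (0.23, adjusted p = 0.0540) and of no other collagen. Neither scaling moved the median of all tested loci by more than 0.1 log2 units. Without fragment counts, a level near 0 cannot be told from none, and 3 libraries a group set the precision of every test.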

Other observations

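Marker and pathway lists beside the collagens gave further counts at an adjusted p under 0.05 (limma), which are set down here as values. Over all tested loci, 35.8% were higher and 38.8% lower in EpiLC against wild-type ESC, 32.4% were higher and 32.7% lower in Sirt1KO against wild-type ESC, 27.1% were higher and 26.8% lower in Sirt1KO Otx2KD against wild-type ESC, 31.1% were higher and 31.5% lower in Sirt1KO Otx2KD against Sirt1KO and 34.0% were higher and 35.1% lower in EpiLC against Sirt1KO. Of 6 naive pluripotency markers tested, 2 higher and 4 lower were called in Sirt1KO against wild-type ESC, 3 higher and 1 lower in Sirt1KO Otx2KD against wild-type ESC, 4 higher and 2 lower in Sirt1KO Otx2KD against Sirt1KO, and 0 higher and 6 lower in EpiLC against Sirt1KO (0 higher at an unadjusted p under 0.05). Of 5 primed markers, all 5 were higher in Sirt1KO than in wild-type ESC, 2 were higher and 0 lower in Sirt1KO Otx2KD than in wild-type ESC (0 lower at an unadjusted p under 0.05), all 5 were lower in Sirt1KO Otx2KD than in Sirt1KO, and all 5 were higher in EpiLC than in Sirt1KO. The same Sirt1KO libraries that had the lowest fibrillar collagen sum thus had higher primed markers than wild-type ESC. Of 4 general pluripotency markers, 1 higher and 2 lower were called in EpiLC against wild-type ESC, 2 higher and 2 lower in Sirt1KO against wild-type ESC, 1 higher and 1 lower in Sirt1KO Otx2KD against wild-type ESC, 2 higher and 1 lower in Sirt1KO Otx2KD against Sirt1KO, and 2 higher and 2 lower in EpiLC against Sirt1KO.

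Among naive markers, the transcription factors Tbx3, Prdm14 and Tfcp2l1 had log2 fold changes of -3.79, -3.95 and -3.25 in EpiLC against wild-type ESC, and Tfcp2l1, Tbx3 and Klf4 of -4.08, -3.37 and -3.09 in EpiLC against Sirt1KO. In Sirt1KO against wild-type ESC, Klf4 (0.98) and Tfcp2l1 (0.83) were higher and Prdm14 (-0.72) lower. Prdm14 (0.74) and Tbx3 (0.60) were higher and Klf4 (-1.12) lower in Sirt1KO Otx2KD than in Sirt1KO. Tfcp2l1 (0.23) and Zfp42 (0.12) were higher and Esrrb (-0.21) lower in Sirt1KO Otx2KD than in wild-type ESC. Among primed markers, the DNA methyltransferases Dnmt3b and Dnmt3a and the transcription factor Pou3f1 were higher in EpiLC than in wild-type ESC (4.68, 4.66 and 3.86). Dnmt3b and Pou3f1 were higher in Sirt1KO (2.58 and 2.21) and in Sirt1KO Otx2KD (0.48 and 0.49) than in wild-type ESC, and lower in Sirt1KO Otx2KD than in Sirt1KO (-2.10 and -1.72). Of the general markers, Utf1 was higher in EpiLC (3.45) and in Sirt1KO (1.68) than in wild-type ESC, lower in Sirt1KO Otx2KD than in Sirt1KO (-1.41) and higher in EpiLC than in Sirt1KO (1.77). Sall4 and Sox2 were lower in EpiLC (-0.54 and -0.75) and in Sirt1KO (-0.70 and -0.63) than in wild-type ESC, and higher in Sirt1KO Otx2KD than in Sirt1KO (0.94 and 0.37). Sall4 was higher (0.24) and Sox2 lower (-0.26) in Sirt1KO Otx2KD than in wild-type ESC. Pou5f1 was lower in EpiLC than in Sirt1KO (-0.13).

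In Sirt1KO Otx2KD against wild-type ESC (background 27.1% higher and 26.8% lower), the genes of procollagen processing and crosslinking gave 5 higher and 3 lower, those of chain modification 6 higher and 2 lower, those of folding and export 4 higher and 1 lower, and the endoderm markers 3 higher and 1 lower. The collagen receptors gave 2 higher and 0 lower (0 lower unadjusted), and the proteases and inhibitors 6 higher and 0 lower (0 lower unadjusted). In EpiLC against Sirt1KO (background 34.0% higher and 35.1% lower), counts were 5 higher and 3 lower for processing and crosslinking, 4 higher and 5 lower for chain modification, 4 higher and 3 lower for folding and export, and 6 higher and 1 lower for proteases and inhibitors. They were 4 higher and 3 lower for type IV partners, 12 higher and 1 lower for fibroblast and feeder markers and 2 higher and 2 lower for endoderm markers. The collagen receptors gave 4 higher and 0 lower (0 lower unadjusted). In Sirt1KO Otx2KD against Sirt1KO, the type IV partners gave 7 higher and 0 lower (0 lower unadjusted, background 31.1% higher and 31.5% lower). Tek was called lower in EpiLC and in Sirt1KO and higher in Sirt1KO Otx2KD, each against wild-type ESC (-1.33, -0.63 and 0.23), higher in Sirt1KO Otx2KD than in Sirt1KO (0.85) and lower in EpiLC than in Sirt1KO (-0.71). Matn3 was called higher in EpiLC (1.66) and lower in Sirt1KO Otx2KD (-0.71) against wild-type ESC, did not pass in Sirt1KO against wild-type ESC (-0.08), was lower in Sirt1KO Otx2KD than in Sirt1KO (-0.62) and higher in EpiLC than in Sirt1KO (1.74).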
